A study of Mus musculus with 8 samples.

Results

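The genes described here are 37 mouse genes of glycolysis, the pentose phosphate pathway and oxygen sensing, chosen by name. Of these, 33 had a row among the 19703 genes of the deposited table and 4 (Gapdh, Pgk1, Pgam1 and Eno1) had none and were not analysed here. All 33 passed the filter on low values and belong to the 11083 genes tested. They were measured in regulatory T cells (Tregs) that had been sorted from Foxp3-GFP reporter mice, in which the green fluorescent protein marks cells that express Foxp3. The cells were kept to day 6 with beads coated against CD3 and CD28 and with the cytokines IL6, IL23 and IL1B, and one group also received FcCD70, a soluble form of the ligand of the costimulatory receptor CD27. The FcCD70 group (wild type, IL6, IL23, IL1B and FcCD70) has 3 libraries with a column, numbered 1 to 3, and the untreated group (wild type, IL6, IL23 and IL1B alone) has 4, numbered 1 to 4. The sample titled FcCD70 and numbered 4 was not analysed here. The treatment field contradicts the title in all 8 samples. Groups follow the titles, as the column names do. If the titles are wrong, every direction between FcCD70 and untreated turns round, while those between replicate numbers stay. No label ties the samples to individual animals, and the p-values therefore reflect sample-to-sample spread that can be purely technical. The study asks what CD27 signalling does to Treg transcripts under conditions that favour the Th17 fate.

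Glycolysis splits glucose into pyruvate, which lactate dehydrogenase turns into lactate or the pyruvate dehydrogenase complex passes to the mitochondria. The pentose phosphate pathway branches off at glucose 6-phosphate and supplies NADPH and ribose for nucleotides. The transcription factor HIF-1, whose alpha subunit is marked for breakdown by oxygen-dependent prolyl hydroxylases and the VHL protein, switches on many glycolytic genes, and in mouse CD4 T cells glycolysis and HIF-1 are known to favour Th17 cells over Tregs.

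The libraries held 18183470 to 23359331 reads in the FcCD70 group and 18159685 to 23527899 in the untreated group. Those numbered 3 and 4 (21200214 to 23527899 reads) were all deeper than those numbered 1 and 2 (18159685 to 19715108 reads). The FcCD70 library numbered 2 stood apart, with a median absolute distance of 0.23 (log2) to the median library over 11083 genes, against 0.0695 to 0.146 in the other 6 libraries. Markers of the labelled cell type were present: Foxp3 averaged 259 RPM (reads scaled to a common library total), Il2ra 899, Ctla4 770 and Ikzf2 277. Of the markers of other blood cells, Cd8a averaged 0.31 RPM and Csf1r 0.03, and Ncr1 and S100a8 were at 0 in every library, while Cd8b1 (8.07 RPM), Cd79b (7.96) and Cd68 (4.65) were detected in every library. The summed Treg markers (6 of 6 with a row) spanned 2508 to 3250 RPM in the FcCD70 libraries and 2986 to 3259 in the untreated libraries.

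The most abundant of these transcripts in both groups were those of Ldha, Pkm and Aldoa. Per length (RPKM, reads scaled by library total and by the length of the principal transcript, mean of 7 libraries), Ldha, the lactate dehydrogenase subunit that favours lactate, had the highest mean of the 33 genes at 539 RPKM (range 489 to 622; ENSMUSG00000063229, chr7:46841475-46855627, plus strand, GRCm38). It was followed by the pyruvate kinase gene Pkm at 407 RPKM (348 to 441), and by Aldoa, the main aldolase of most tissues, at 401 RPKM (327 to 464), with ranges that overlapped. Gpi1, which interconverts glucose 6-phosphate and fructose 6-phosphate, had 255 RPKM, above Hif1a (HIF-1 alpha) and the triose isomerase gene Tpi1, both at 172 RPKM. This order below Ldha rests on the length used. With the length of all annotated exons of a gene joined, Aldoa (208 RPKM) came above Pkm (198 RPKM). Hif1a (138 RPKM) then came above Gpi1 (114 RPKM) and Tpi1 (100 RPKM). Among the 33 genes, 8 lay above the 90th percentile of the tested genes and 6 below the 50th. The lowest were Hk2 (5.83 RPKM), Pdk2 (5.47 RPKM), Eno2 (5.41 RPKM) and Pfkfb4 (4.92 RPKM). With the joined length Eno2 was the lowest at 3.22 RPKM, against 3.52 RPKM for Pfkfb4. Even the smallest single value of the 33 genes, 214 normalized counts (read counts divided by the library's size factor), was far above the 3.03 normalized counts that 3 reads made in that library (Pdk2, untreated 2). Here, as in any bulk sample, fewer cells expressing a gene and less RNA per cell cannot be told apart.

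**Figure D1:**
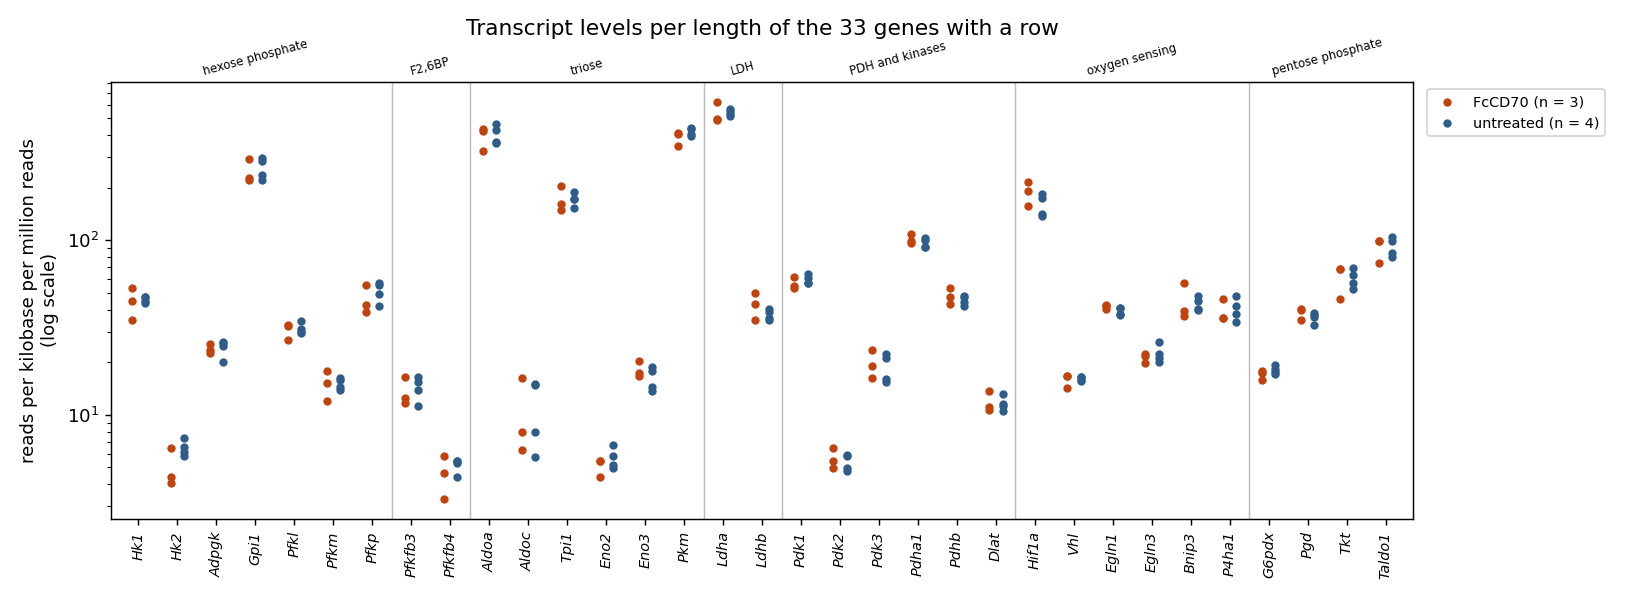
RPKM on a log axis (vertical) for each of the 33 genes (horizontal, ordered by role), with 1 point per library for FcCD70 (n = 3, left) and untreated (n = 4, right). Levels span 4.92 RPKM (Pfkfb4) to 539 RPKM (Ldha) on average, and the ranges of both groups overlap for every gene.

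Where the 33 genes hold several isoenzymes of a step, 1 gene usually gave most of their transcripts. Shares are of the named members alone, and other isoenzymes are not counted. Hk1, the constitutive hexokinase, made up 89.9% ± 1.6 of the summed RPKM of Hk1 and Hk2 in FcCD70 libraries and 87.7% ± 1.2 in untreated libraries (SD, n = 3 and 4), and Hk2, which is inducible, made up the rest of that sum. Aldoa gave 97.5% ± 1.1 of the RPKM of Aldoa and Aldoc with FcCD70 and 97.4% ± 0.8 without, and Ldha 92.6% ± 0.8 of that of Ldha and Ldhb with FcCD70 and 93.5% ± 0.4 without. Among the pyruvate dehydrogenase kinases Pdk1, Pdk2 and Pdk3, which switch the pyruvate dehydrogenase complex off, Pdk1 led with 69.2% ± 4.2 in FcCD70 libraries and 71.2% ± 3.6 in untreated libraries. Among the phosphofructokinases, the enzymes of the committed step, Pfkp led with 49.7% ± 3.1 in FcCD70 libraries and 52.3% ± 2.2 in untreated libraries, ahead of Pfkl and Pfkm. That lead rests on the transcript length used: with the length of all annotated exons of a gene joined, Pfkl averaged 38.3% over the 7 libraries and Pfkp 33%. With that length Hk2 averaged 20.8% of its pair, against 11.4% with the principal transcript, and Aldoc 4.08%, against 2.53%. Pfkfb3 gave 74.9% ± 2.7 with FcCD70 and 73.2% ± 3.6 without of the RPKM of Pfkfb3 and Pfkfb4, bifunctional enzymes that make and break the phosphofructokinase activator fructose 2,6-bisphosphate, and Egln1 gave 66.2% ± 1.0 with FcCD70 and 63.7% ± 2.4 without of that of the prolyl hydroxylases Egln1 and Egln3. These differences between groups were not tested.

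Promoter sequence is shown for the 5 genes with the smallest p between replicate numbers (described further below), because the known HIF-1 binding core could be looked for there. Each run is the 250 bases before the first RefSeq start site listed for the gene (GRCm38.p6), 5′ to 3′ on the gene's strand, with capitals marking ACGTG or GCGTG, read on either strand (as CACGT or CACGC on the other).
Aldoc, chr11:78322823-78323072, plus strand: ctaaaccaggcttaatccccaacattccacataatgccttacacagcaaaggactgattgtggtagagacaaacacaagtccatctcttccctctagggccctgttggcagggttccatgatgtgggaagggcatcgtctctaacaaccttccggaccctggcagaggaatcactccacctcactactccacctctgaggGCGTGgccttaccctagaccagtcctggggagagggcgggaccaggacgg
P4ha1, chr10:59323046-59323295, plus strand: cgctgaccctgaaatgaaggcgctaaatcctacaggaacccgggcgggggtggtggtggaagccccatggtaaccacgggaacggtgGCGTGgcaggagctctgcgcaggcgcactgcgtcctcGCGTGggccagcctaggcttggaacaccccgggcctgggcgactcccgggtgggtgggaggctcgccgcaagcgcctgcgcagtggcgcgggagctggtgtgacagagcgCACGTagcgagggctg
Pfkfb3, chr2:11553930-11554179, minus strand: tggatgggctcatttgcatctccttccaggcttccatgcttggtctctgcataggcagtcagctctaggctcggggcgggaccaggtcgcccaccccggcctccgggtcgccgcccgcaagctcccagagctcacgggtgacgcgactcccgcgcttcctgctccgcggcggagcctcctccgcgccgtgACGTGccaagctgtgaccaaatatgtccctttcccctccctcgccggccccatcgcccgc
Pfkp, chr13:6648772-6649021, minus strand: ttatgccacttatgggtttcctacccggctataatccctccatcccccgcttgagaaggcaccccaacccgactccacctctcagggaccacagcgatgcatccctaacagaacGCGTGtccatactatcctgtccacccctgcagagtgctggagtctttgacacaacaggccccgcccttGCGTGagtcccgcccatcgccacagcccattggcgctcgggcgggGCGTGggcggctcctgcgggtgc
Tkt, chr14:30548881-30549130, plus strand: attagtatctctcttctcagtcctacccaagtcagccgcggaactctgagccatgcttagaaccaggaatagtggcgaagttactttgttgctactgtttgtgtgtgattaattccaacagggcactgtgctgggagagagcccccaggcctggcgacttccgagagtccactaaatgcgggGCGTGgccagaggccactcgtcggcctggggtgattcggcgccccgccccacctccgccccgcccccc
The windows of Aldoc (aldolase C), Pfkfb3 and Tkt hold 1 match each, and those of P4ha1, a subunit of the collagen prolyl hydroxylase, and Pfkp hold 3 each. Pfkfb3 has a second RefSeq start site, whose window (chr2:11502091-11502340, minus strand, not shown) holds 3 matches. Those at positions -53 and -52 from the start site are a single CACGTG, read once on each strand. Aldoc has a second one too, whose window (chr11:78323948-78324197, plus strand, not shown) holds 1 match. At least 1 match stood in 34 of the 46 windows of the 33 genes (73.9%), against 56.5% of the 10970 windows of tested genes and 38.6% of all 32851 windows. By gene, 28 of the 33 had a match in some window, against 5373 of the 8565 tested genes with a window. Base composition was alike, with a mean GC share of 59.7% in the windows of the 33 genes and 59.9% in those of tested genes, against 53.2% in all windows. The E-box CACGTG, the site of other factors such as MYC, contains ACGTG and stood in 6 of the 46 windows of the 33 genes, against 8.34% of those of tested genes. A match describes the letters alone and not binding.

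Of the 33 genes, 0 passed the test between FcCD70 and untreated Tregs. In limma, a linear model on log2(normalized count + 1) with the replicate number as a block and moderated tests, 0 of the 33 had a Benjamini-Hochberg adjusted p under 0.05, as did 0% of the 11083 genes tested, and the smallest adjusted p was 0.9998. An unadjusted p under 0.05 was reached by 0 of the 33, against 1.70% of all genes (188). With edgeR on recovered reads, 0 genes had an adjusted p under 0.05 (168 unadjusted, 0 of the 33), and with DESeq2 there was 1 gene, outside this set (141 unadjusted, 0 of the 33). The authors' deposited table holds 0 genes with an adjusted p under 0.05.

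The fitted differences were small. The median log2 fold change, FcCD70 over untreated, was 0.03 for the 33 genes (21 above 0 and 12 below) and -0.0035 for all tested genes, and 31 of the 33 lay within 0.2 of 0. All 33 of the 95% intervals included 0 and lay within 1 log2 unit of it, with a median width of 0.61. Within the 3 same-numbered pairs the median difference of the 33 genes was -0.07, 0.08 and 0.05. The FcCD70 and untreated values overlapped for every one of them, so 0 were higher and 0 lower in all FcCD70 libraries, against 1.34% and 1.18% of all genes. Higher in 3 of 3 pairs were 2 genes (Hif1a and Egln1), against 9.03% of all genes, and lower in 3 of 3 pairs 0, against 9.61%.

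**Figure D2:**
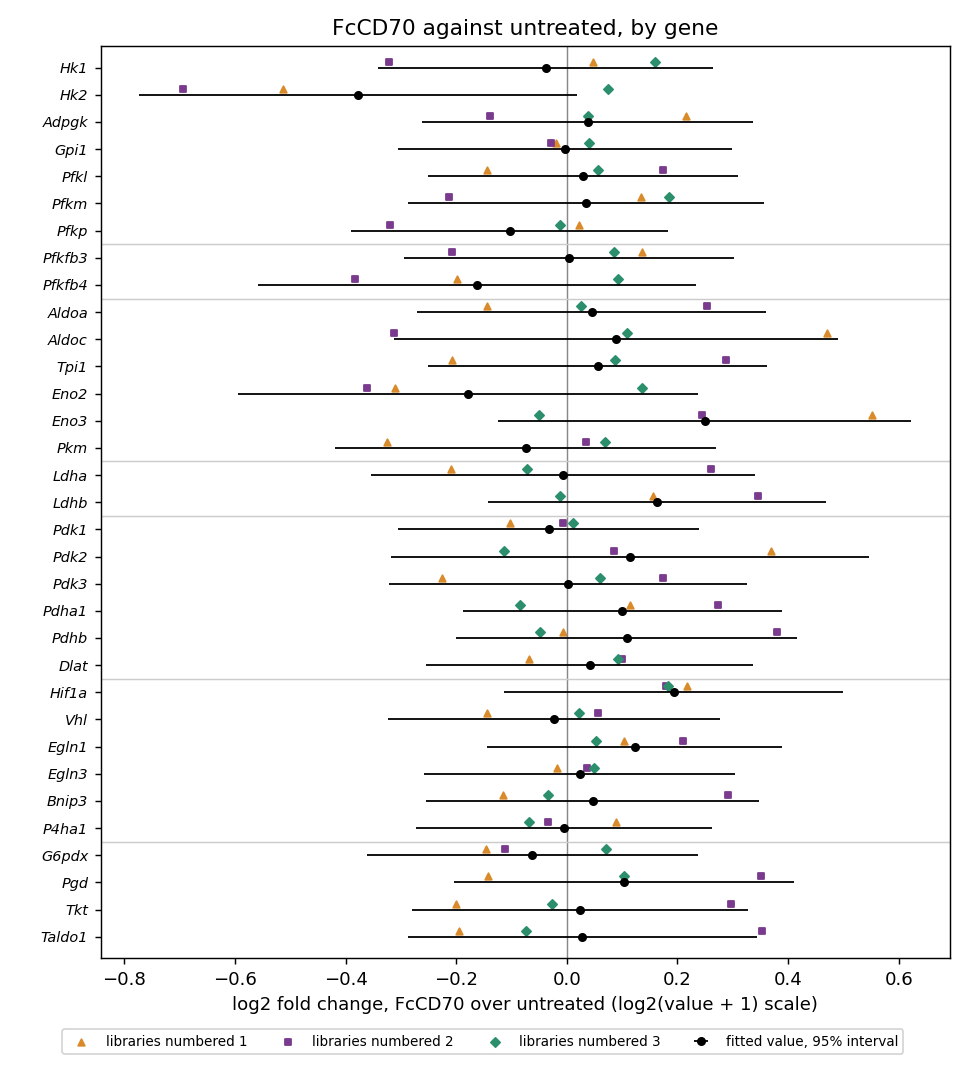
Log2 fold change, FcCD70 over untreated, on the log2(normalized count + 1) scale (horizontal) for each gene (vertical, ordered by role). Black points and bars are the limma value and its 95% interval, and coloured marks the differences of the libraries numbered 1, 2 and 3. Every bar crosses 0, and Hk2 lies farthest from it at -0.38.

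Of the 7 genes that carry glucose to fructose 1,6-bisphosphate, 3 had a fold change above 0 and 4 below, with a median of -0.0028. Hk2, the hexokinase that activated T cells induce, had the smallest p of the 33 genes (ENSMUSG00000000628, chr6:82725025-82774454, minus strand). It had 448, 498 and 736 normalized counts in the FcCD70 libraries, against 640.4, 805, 699 and 737 in the untreated libraries, listed in the order of the replicate numbers as are all values below. The FcCD70 libraries numbered 1 and 2 were lower than each untreated library, and the one numbered 3 lay within the untreated range. Its log2 fold change was -0.38 ± 0.18 (SE; 95% interval -0.77 to 0.02), with an unadjusted p of 0.0593 and an adjusted p of 0.9998 in limma. Over the alternatives it was lowest at -0.6, without the libraries numbered 3 or, with no replicate block, without FcCD70 3. It was highest at -0.22, without the libraries numbered 2. The authors' deposited table gives an unadjusted p of 0.0134 and a log2 fold change of -0.4 once its sign, coded as untreated over FcCD70, is turned. Hk2 was the 1 gene of the 33 under 0.05 there, against 1.45% of the 14728 genes with a p.

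Pfkp, the platelet-type phosphofructokinase, had 3525, 3279.9 and 4713 normalized counts in the FcCD70 libraries, against 3472, 4092, 4752 and 4836 in the untreated libraries. The FcCD70 library numbered 2 was the lowest of the 7. Its log2 fold change was -0.10 ± 0.13 (SE; 95% interval -0.39 to 0.18). Fold changes of the other genes of these steps (Hk1, Adpgk, Gpi1, Pfkl and Pfkm) ran from -0.04 to 0.04. Pfkfb3, the bifunctional enzyme with the stronger kinase activity, had 1151, 1108 and 1569 normalized counts in the FcCD70 libraries, against 1048, 1279, 1479 and 1570.2 in the untreated libraries. Both groups covered nearly one range, and the log2 fold change was 0.0045 ± 0.13 (SE; 95% interval -0.29 to 0.30). Pfkfb4, its relative, had one of -0.16.

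In the triose steps, 4 of 6 genes had a fold change above 0 and 2 below, with a median of 0.05. Aldoa had 9845, 13139 and 13541 normalized counts in the FcCD70 libraries, against 10884, 11022, 13298 and 14369.8 in the untreated libraries. The lowest of the 7 values was that of FcCD70 1 and the highest that of untreated 4. Aldoc, a second aldolase, had 445, 357 and 936 normalized counts in the FcCD70 libraries, against 321, 444, 867 and 844 in the untreated libraries, values that divided by replicate number within each group rather than by treatment, as described below. The enolase Eno3, best known from muscle, had the largest positive fold change of the 33 genes at 0.25 ± 0.17 (SE; 95% interval -0.12 to 0.62). Its values were 633, 534 and 558 normalized counts in the FcCD70 libraries, against 431, 450.1, 578 and 601 in the untreated libraries. In FcCD70 1 it was above all untreated libraries, and the other FcCD70 libraries lay within their range. Without the libraries numbered 1 its log2 fold change was 0.098, below that of Hif1a at 0.18, and without those numbered 3 it was 0.40. Pkm had 16856, 20275 and 20698 normalized counts in the FcCD70 libraries, against 21123, 19797, 19729 and 21986 in the untreated libraries. The log2 fold change of Pkm, -0.074 ± 0.15 (SE; 95% interval -0.42 to 0.27), stood beside a low value in FcCD70 1, below all other libraries.

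Ldha had 17231, 22429 and 17940.4 normalized counts in the FcCD70 libraries, against 19923, 18725, 18857 and 19901 in the untreated libraries. Its highest and lowest values were both in FcCD70 libraries, and its log2 fold change was -0.0069 ± 0.15 (SE; 95% interval -0.35 to 0.34). Ldhb, the subunit that favours pyruvate, had 1129, 1336 and 937 normalized counts in the FcCD70 libraries, against 1013, 1050.5, 945 and 963 in the untreated libraries. FcCD70 1 and 2 were above each untreated library and FcCD70 3 was below them, and the log2 fold change was 0.16 ± 0.14 (SE; 95% interval -0.14 to 0.47). It was 0.071 without FcCD70 2 or both libraries numbered 2, 0.25 without those numbered 3 and, with no replicate block, 0.051 without FcCD70 2 and 0.31 without FcCD70 3. Around the mitochondrial gate, Pdk1 had 5503, 5824 and 6574 normalized counts in the FcCD70 libraries, against 5907, 5855, 6519 and 6788 in the untreated libraries. The ranges overlapped and the log2 fold change was -0.033 ± 0.12 (SE; 95% interval -0.30 to 0.24). Of the 6 genes of the pyruvate dehydrogenase complex and its kinases, 5 had a fold change above 0 and 1 below. Those of Pdha1 and Pdhb (the first enzyme of the complex), Dlat (the second), Pdk2 and Pdk3 ran from 0.0027 to 0.11.

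Hif1a, the oxygen-regulated subunit of HIF-1 (ENSMUSG00000021109, chr12:73901375-73947530, plus strand), had 20345, 18561 and 15262 normalized counts in the FcCD70 libraries, against 17492, 16393, 13447 and 13744 in the untreated libraries. Within each same-numbered pair FcCD70 was higher, by log2 differences of 0.22, 0.18 and 0.18, while the groups overlapped, and the libraries numbered 3 and 4 were low in both. Its log2 fold change was 0.19 ± 0.14 (SE; 95% interval -0.11 to 0.50), with an unadjusted p of 0.189 in limma. With no replicate block it was 0.36 without FcCD70 3 and 0.31 without untreated 1. Its adjusted p was at least 0.45 over the alternatives. Egln1, the main prolyl hydroxylase that marks HIF-1 alpha, had 2905, 3072 and 3144 normalized counts in the FcCD70 libraries, against 2703, 2657, 3029 and 2999 in the untreated libraries. Pair differences were 0.10, 0.21 and 0.05, and the log2 fold change was 0.12 ± 0.12 (SE; 95% interval -0.14 to 0.39).

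For 3 genes that HIF-1 is known to switch on, the groups overlapped too. Egln3 had 1050.2, 1209 and 1201 normalized counts in the FcCD70 libraries, against 1063, 1178, 1160.5 and 1428 in the untreated libraries. All FcCD70 values lay below untreated 4 and the ranges overlapped. Bnip3, a receptor for the removal of mitochondria, had 1289, 2042 and 1424 normalized counts in the FcCD70 libraries, against 1398, 1669, 1459 and 1627 in the untreated libraries. FcCD70 2 was the highest of all 7 libraries and FcCD70 1 the lowest, and the log2 fold change was 0.047 ± 0.13 (SE; 95% interval -0.25 to 0.35). P4ha1 had 2915, 2963 and 3822 normalized counts in the FcCD70 libraries, against 2741, 3034, 4009 and 3475 in the untreated libraries. The values divided by number, and the log2 fold change was -0.0049 ± 0.12 (SE; 95% interval -0.27 to 0.26). That of Vhl, the adaptor that delivers HIF-1 alpha for breakdown, was -0.02.

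In the pentose phosphate pathway, G6pdx, which catalyses its entry step, had 923, 860.4 and 982 normalized counts in the FcCD70 libraries, against 1021, 929, 934 and 997 in the untreated libraries. It was the steadiest of the 33 genes, with a coefficient of variation of 5.71% over the 7 libraries. For G6pdx the log2 fold change was -0.062 ± 0.13 (SE; 95% interval -0.36 to 0.24). Tkt, the transketolase that links the pathway back to glycolysis, had 2966, 4494 and 4549 normalized counts in the FcCD70 libraries, against 3408, 3656, 4633 and 4158 in the untreated libraries. FcCD70 1 was the lowest of the 7 and untreated 3 the highest. Its log2 fold change was 0.024 ± 0.14 (SE; 95% interval -0.28 to 0.33). Those of Pgd, the second oxidative enzyme, and Taldo1, the transaldolase, were 0.10 and 0.03.

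Other genes of the same pathways also gave no call. Of 80 further genes of glycolysis, glucose and lactate transport, the pentose phosphate pathway, hypoxia and the glucose response, 78 had a row and 64 were tested. By limma's adjusted threshold, 0 of the 64 differed between FcCD70 and untreated in either direction, against 0% of all genes, and their median log2 fold change was 0.02. An unadjusted p under 0.05 was reached by 2 of the 64, both from the hypoxia list, against 1.70% of all genes. The smaller p was that of P4ha2, another collagen prolyl hydroxylase subunit, with 16.6, 13.5 and 76.7 normalized counts in the FcCD70 libraries, against 60.5, 66.6, 70.9 and 94.9 in the untreated libraries. FcCD70 1 and 2 were low and FcCD70 3 lay within the untreated range, and its log2 fold change of -1.31 (SE 0.47) had an adjusted p of 0.9998 in limma. Mpc2, a subunit of the mitochondrial pyruvate carrier, led the transport list with a log2 fold change of 0.29 (SE 0.17). Its FcCD70 values of 613, 911 and 639 normalized counts, against 557, 565, 616 and 620 in untreated libraries, overlapped. Arrdc4 led the glucose-responsive list, with FcCD70 values of 101.5, 93.2 and 95.2 normalized counts, against 71.5, 58.5, 73.8 and 88.8 in untreated libraries. All its FcCD70 values lay above the untreated ones, as in 1.34% of all genes. The log2 fold change of Arrdc4 was 0.51 (SE 0.27), with an adjusted p of 0.9998 in limma. Pfkfb1 (-0.40, SE 0.28) and Shpk (-0.22, SE 0.19) led the other glycolysis and pentose phosphate lists, with overlapping values.

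By replicate number, 14 of the 33 genes divided with no overlap, where by treatment 0 did. Numbers 1 and 2 were already known from earlier results of these data to differ from 3 and 4 across many genes, so the division is described here with no test of its own. In both groups the 33 genes were lower, at the median, in the libraries numbered 1 and 2: the log2 difference, 1 and 2 minus 3 and 4, was -0.16 in FcCD70 libraries and -0.18 in untreated libraries, against -0.01 and -0.0050 for all tested genes. In FcCD70 libraries it was -0.03 without those numbered 1 and -0.24 without those numbered 2. By mean log2 value, 19 genes were lower in 1 and 2 within both treatments (57.6%, against 32.9% of all genes) and 4 were higher within both (12.1%, against 30.9%). Without overlap between the 4 libraries numbered 1 or 2 and the 3 numbered 3 or 4, 11 genes were lower in 1 and 2 (33.3%, against 11.1% of all genes) and 3 were higher (9.09%, against 11.1%). Scaled by RPM, these counts were 10 (without Adpgk) and 3.

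**Figure D3:**
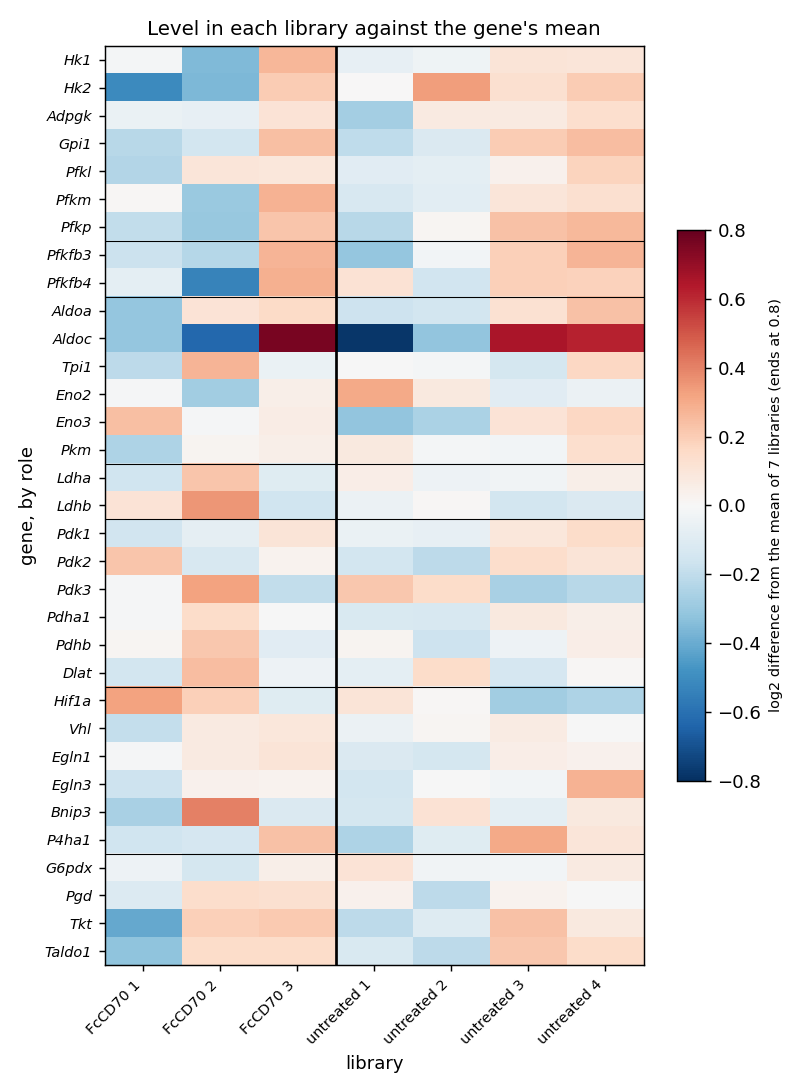
Colour gives the log2 difference of each library (horizontal, FcCD70 1 to 3 left of untreated 1 to 4) from the gene's mean over the 7 libraries, for the 33 genes ordered by role (vertical) with values beyond 0.8 drawn in the end colours. FcCD70 3, untreated 3 and untreated 4 are mostly red from Hk1 to Aldoc, and Pdk3 and Hif1a are blue there.

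The genes lower in the libraries numbered 1 and 2 came from several roles, the hexose phosphate steps giving the most. All 4 genes with no row belong to the triose steps, so those steps are less covered. The lower genes were 5 of the 7 genes of the hexose phosphate steps (Hk1, Adpgk, the ADP-dependent glucokinase, Gpi1, Pfkm and Pfkp), both fructose 2,6-bisphosphate enzymes (Pfkfb3 and Pfkfb4), 2 of the 6 genes of the triose steps (Aldoa and Aldoc), Pdk1 and P4ha1. The 3 higher ones were Ldhb, Pdk3 and Hif1a. Of the 4 pentose phosphate genes, 0 divided without overlap.

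Aldoc (ENSMUSG00000017390, chr11:78322968-78327781, plus strand) varied most, with a coefficient of variation of 44.4%, and its values, given above, averaged 392 ± 63 normalized counts in the libraries numbered 1 and 2 (SD, n = 4) and 882 ± 48 in those numbered 3 and 4 (SD, n = 3). The 4 libraries of the lower set, of both treatments, were below the 3 libraries of the higher set. Its log2 difference, 1 and 2 minus 3 and 4, was -1.23 in FcCD70 libraries and -1.18 in untreated libraries. Gpi1 had 12680.4, 13368 and 17465 normalized counts in the FcCD70 libraries, against 12854, 13634, 16994 and 17567 in the untreated libraries. Its means were 13134 ± 443 normalized counts in the libraries numbered 1 and 2 (SD, n = 4) and 17342 ± 306 in those numbered 3 and 4 (SD, n = 3), a ratio of 0.757. P4ha1, Pfkfb3 and Pfkp divided by a similar amount, with ratios of 0.773, 0.745 and 0.754. P4ha1 averaged 2913 ± 125 normalized counts in 1 and 2 (SD, n = 4) and 3769 ± 271 in 3 and 4 (SD, n = 3). Pfkfb3 averaged 1146 ± 98 normalized counts in 1 and 2 and 1539 ± 52 in 3 and 4. Pfkp averaged 3592 ± 349 normalized counts in 1 and 2 and 4767 ± 63 in 3 and 4. In each of these genes every library numbered 1 or 2 lay below every one numbered 3 or 4, in both groups.

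Hif1a was higher in the libraries numbered 1 and 2, with 18198 ± 1683 normalized counts (SD, n = 4), against 14151 ± 974 in those numbered 3 and 4 (SD, n = 3). Pdk3, another of the kinases that restrain the pyruvate dehydrogenase complex, was too, with 913 ± 87 normalized counts in 1 and 2 and 693 ± 15 in 3 and 4. Among the 3 kinases, Pdk1 made up 66.0% to 68.5% of the RPKM in the libraries numbered 1 and 2 and 74.0% to 74.5% in those numbered 3 and 4, while Pdk3 made up 24.2% to 28.1% in 1 and 2 and 18.7% to 19.5% in 3 and 4.

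**Figure D4:**
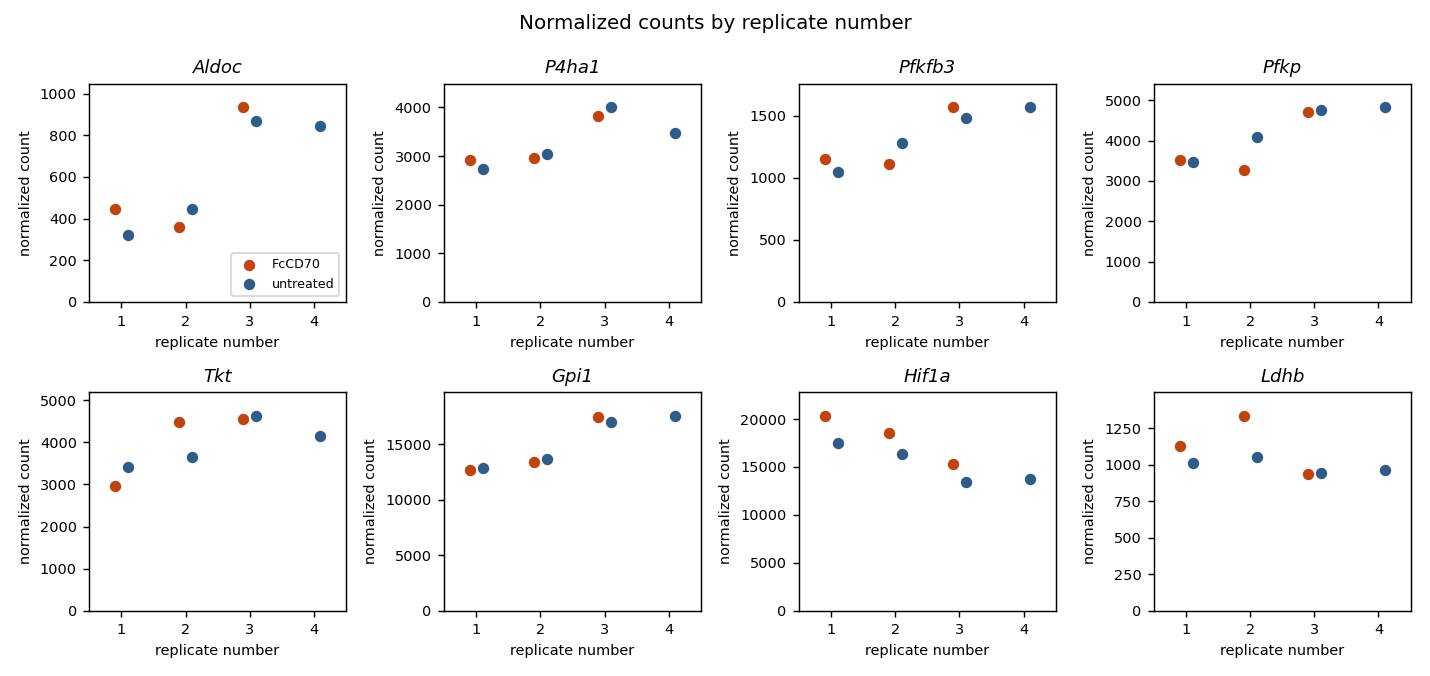
Normalized count (vertical, from 0) by replicate number (horizontal) for 8 genes, with 1 point per library, FcCD70 left of untreated at each number. Aldoc averages 392 in the libraries numbered 1 and 2 and 882 in those numbered 3 and 4, while Hif1a and Ldhb are lower in 3 and 4.

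When each number was its own level, a moderated F-test in limma gave 0 of the 33 genes an adjusted p under 0.05, against 0.135% of all genes (15). Before adjustment, 3 of the 33 lay under 0.05 (9.09%, against 8.02% of all genes). They were Aldoc (adjusted p = 0.103 in limma), P4ha1 (0.58) and Pfkfb3 (0.587). Pfkp and Tkt came next, each with an adjusted p of 0.636. DESeq2's likelihood ratio test on recovered reads called Aldoc alone of the 33 (adjusted p = 2.01e-05; 3.03%, against 2.14% of all genes), and edgeR called 0. The count of calls changed with the libraries left out. Without the FcCD70 library numbered 2, or without both libraries numbered 2, the F-test called 9 genes, with 1 residual degree of freedom: Gpi1, Pfkp, Pfkfb3, Aldoa, Aldoc, Hif1a, P4ha1, Tkt and Taldo1. That is 27.3%, against 16.3% of all genes without both libraries. In the fit without both, the p-values of these 9 genes are those that F gives with unlimited degrees of freedom. There limma's variance trend over all genes was taken as known, and each gene's own spread did not enter. Without the libraries numbered 1, Aldoc alone was called (adjusted p = 0.0176).

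Of the 64 other pathway genes, 0 passed the F-test over numbers, and the smallest p was that of Stc2, which encodes a stanniocalcin and is known to respond to hypoxia. It had 156, 226 and 487 normalized counts in the FcCD70 libraries, against 156, 279, 438 and 441 in the untreated libraries, with an adjusted p of 0.0886 in limma. Slc2a6, a sugar transporter of the GLUT family, had 622, 426 and 388 in the FcCD70 libraries, against 752, 553, 341 and 349 in the untreated libraries (adjusted p = 0.262). Stc2 was lower and Slc2a6 higher in the libraries numbered 1 and 2, in both groups. Without overlap, 7 of the 64 were lower in 1 and 2 and 5 were higher, against 11.1% of all genes in each direction. The median log2 difference of the 64, 1 and 2 minus 3 and 4, was -0.03 in FcCD70 libraries and -0.13 in untreated libraries. Without the libraries numbered 2, 12 of the 64 passed, against 16.3% of all genes, in the fit whose variance was taken as known.

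Some other measures divided without overlap between numbers 1 and 2 and numbers 3 and 4, as 11.1% of all genes did in each direction. Summed markers of Treg, T, CD8 T, B, natural killer, myeloid and erythroid cells did not, and their ranges overlapped. Summed markers of dividing cells (7 of 7 with a row) were 710 to 1072 RPM in the libraries numbered 1 and 2 and 454 to 570 in those numbered 3 and 4. Summed stress genes (5 of 6 with a row) were 57.8 to 68.7 RPM in 1 and 2 and 74.8 to 77.0 in 3 and 4. Summed stroma markers (4 of 4 with a row) were 313 to 413 RPM in 1 and 2 and 276 to 299 in 3 and 4, nearly all of it Pecam1 (mean 342 RPM), with Col1a1, Col1a2 and Pdgfrb each under 1 RPM on average. Summed dendritic cell markers (3 of 4 with a row) were 0.31 to 0.88 RPM in 1 and 2 and 0.086 to 0.17 in 3 and 4. These sums rest on few reads, as 3 reads made 0.128 to 0.165 RPM, and 0 of these markers passed the filter on low values. Depth was lower in 1 and 2, as given above. The part of these measures in the division of the 33 genes was not tested.

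Some counts carry a further limit. Of the 33 genes, 14 overlap an annotated gene on the opposite strand (Hk2, Gpi1, Pfkp, Pfkfb3, Aldoa and Hif1a among them), and the strand setting of the counting is not given in the sources used here. For 6 genes (Gpi1, Tpi1, Pkm, Ldhb, Pdhb and Bnip3) a stretch of at least 200 bases is at least 97% identical to another annotated gene, mostly pseudogenes. Some of their reads could therefore have been left out or counted for the other gene.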

How the data were processed

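Poly(A) RNA of cultured mouse Tregs went into TruSeq libraries that keep the strand, per the labels' protocols. The submitters' processing notes name the build GRCm38.p4 and the tools TopHat2, SAMtools, HTSeq and DESeq2. In the deposited library columns, the unit is a signal: the authors divided each read count by the library's size factor, and all values came out as whole multiples of 1 step (100%, to within 0.01). The step of untreated 2 lies so near 1 that a separate automated check of it refused that column as recovered reads, so the count tests, used as alternatives only, carry that limit. The table also holds the authors' deposited log2 fold changes, a score (the Wald statistic) and p-values from DESeq2, per the file headers.

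The plan named tests for counts or for normalized values, and those for normalized values were used: trended limma (version 3.58.1) on log2(value + 1). It took the 11083 genes whose mean reached 10, with replicate number and treatment as terms and 2 residual degrees of freedom. Untreated 4 has no partner, so fold changes rest on 3 pairs. Fold changes understate low genes. Alternatives used edgeR (4.0.16), DESeq2 (1.42.0), other pseudocounts, filters and scalings, and left-out libraries. Lengths come from GENCODE M21 (19618 of 19703 genes matched). The tests were tried on simulated data. Genes with values in every library were those named in the plan (Hk2, Pfkp, Pfkfb3, Aldoa, Aldoc, Pkm, Ldha, Ldhb, Pdk1, Hif1a, Egln3, Bnip3, P4ha1, G6pdx, Tkt) and the 5 with the smallest p in each test. Gpi1, and the means of Pdk3, were added after their values were seen, and of the other pathway genes the one with the smallest p in a list was taken. The 33 genes, the lists and the tests were chosen with earlier results of these data known.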

Additional observations from a re-analysis of the deposited data

Results flagged for a closer look

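Pgd, the second enzyme of the pentose phosphate pathway, had a low value in the untreated library numbered 2, at 1441 normalized counts, against 1662 to 1706 in the other untreated libraries. The gap to the nearest of them was 0.837 of the range, above Dixon's 95% critical value for 4 samples. The untreated group was examined in this way for each of 33 genes, and chance picks out about 1 group in 20.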

How the results depend on the processing

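Between FcCD70 and untreated, 0 of the 33 genes were called under every alternative run, and 0 of all genes under all but these: DESeq2 on recovered reads called 1, and leaving out libraries gave 0 to 20 (20 without FcCD70 2, 19 without both libraries numbered 2, 6 without those numbered 3). The fit without both libraries numbered 2 took the variance as known from the trend over all genes. That without FcCD70 2 has the same residuals, since untreated 2 then has a number term to itself. The median log2 fold change of the 33 genes was 0.028, and without single libraries or numbers it ran from -0.091 to 0.053. With no replicate block it was -0.019. Deviations of same-numbered libraries correlated at 0.303 for number 1, 0.0144 for number 2 and 0.435 for number 3. Differently numbered libraries correlated nearly as much (0.255 for FcCD70 1 with untreated 2, 0.347 for FcCD70 3 with untreated 4), so the data do not pair the samples. The block was kept because the deposited table is named as a paired analysis, and without the replicate block 0 genes were called too.

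Some fold changes near 0 took the other sign. With no replicate block these were Aldoa (-0.030), Aldoc (-0.10), Egln3 (-0.060), Pfkfb3 (-0.076) and Tkt (-0.0026). With the numbers 1 and 2 against 3 and 4 as one term they were Egln3 (-0.034), P4ha1 (0.030) and Pfkfb3 (-0.0047), and Pfkfb3 also with TMM scaling (-0.0035) and edgeR (-0.0032). Libraries were left out both with and without the replicate block. Together these fits gave log2 fold changes from -0.11 to 0.14 for Aldoa, -0.51 to 0.29 for Aldoc, -0.18 to 0.15 for Bnip3, -0.12 to 0.044 for Egln3, -0.14 to 0.094 for Ldha, -0.16 to 0.064 for P4ha1, -0.14 to 0.0023 for Pdk1, -0.23 to 0.11 for Pfkfb3, -0.32 to 0.0049 for Pfkp, -0.16 to 0.052 for Pkm and -0.11 to 0.20 for Tkt. The lowest values of Aldoa, Aldoc, Pfkfb3 and Pfkp came with no replicate block and without FcCD70 3. With the block kept, the values ran from -0.059 to 0.14 for Aldoa and from -0.10 to 0.29 for Aldoc. Without a change of sign, the ranges were 0.090 to 0.40 for Eno3, 0.051 to 0.31 for Ldhb, 0.15 to 0.36 for Hif1a, 0.064 to 0.16 for Egln1 and -0.13 to -0.02 for G6pdx. The cause was not tested.

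Between replicate numbers, all genes called numbered 15, against 2 with TMM scaling, 0 with no filter, 0 with edgeR, 237 with DESeq2 and 29 to 1827 when libraries were left out (79 without number 1, 1805 without 2, 39 without 3, 29 without 4). Of the 33 genes, DESeq2 called 1, and leaving out libraries gave 0 to 9. Fits without the libraries numbered 1, 2 or 3 have 1 residual degree of freedom. The fit without number 2 took the variance as known from the trend over all genes, as described above. The exon length used for levels and isoenzyme shares and the scaling by library totals were compared after the data were seen. The length moved the lead among phosphofructokinases and the order of some levels, as given above.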
